A study of Mus musculus with 16 samples.

Results

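Phenobarbital in the diet was compared with a phenobarbital-free diet in mouse livers whose hepatocytes lack beta-catenin. The 8 arrays of this comparison were chosen by their titles, out of 16 arrays in the series: 4 labelled CTNNB1KO_PB and 4 labelled CTNNB1KO_H2O. The CTNNB1KO_PB livers came from male C3H mice with a Ctnnb1 knockout that received 0.05% phenobarbital in the diet for 12 weeks. The CTNNB1KO_H2O livers came from male C3H mice of the same knockout kept free of phenobarbital. The label of this group names water while the treatment protocol describes a diet without phenobarbital, so these arrays are called controls here. The knockout was made by Cre recombinase under the albumin promoter, acting on a floxed Ctnnb1 gene, in a line backcrossed into C3H/N. The labels call the knockout specific to hepatocytes, so whole liver also holds cells that the knockout is not meant to reach. The remaining 8 arrays, 4 from WT mice on 0.05% phenobarbital and 4 from WT controls, served to show where CTNNB1KO livers differed. No age is given, and no label says that each array is a separate animal, so the p-values below measure a spread between samples that may in part be technical.

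Phenobarbital activates the nuclear receptor CAR in hepatocytes, which induces drug-metabolising enzymes and makes the drug a tumour promoter in mouse liver. Beta-catenin is the co-activator of Wnt signalling, and in the liver it maintains the gene programme of the hepatocytes around the central vein, where much of the response to phenobarbital takes place. A miRNA is a short RNA that guides Argonaute proteins to mRNAs, chiefly through pairing of its seed, bases 2 to 8 from the 5′ end, so that miRNAs with one seed share most of their targets. Ctnnb1 mRNA is not among the features of a miRNA array, and loss of the gene could not be checked in these values.

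The mature sequences of the miRNAs on which the results turn are given 5′ to 3′, from RefSeq (GRCm38.p6), with the seed in capitals. RefSeq entries were found for 16 of the 17 miRNAs looked up, and miR-30d is named only. An asterisk in an array name marks the opposite arm of the hairpin. The first set holds the miRNAs with a higher phenobarbital mean and their relatives, in which both miR-29 members share one seed, as do miR-16 and miR-15b.
miR-802: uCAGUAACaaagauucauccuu
miR-29c: uAGCACCAuuugaaaucgguua
miR-29b: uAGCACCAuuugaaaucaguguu
miR-16: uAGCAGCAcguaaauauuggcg
miR-15b: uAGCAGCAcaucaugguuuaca
miR-34a: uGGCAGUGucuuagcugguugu
The gene of miR-802 lies on chr16:93369737-93369758 (plus strand, mature sequence) and that of miR-34a on chr4:150068473-150068494 (plus strand), neither of them inside another annotated gene of the reference. miR-29c lies on chr1:195037600-195037621 (plus strand), inside the lncRNA A330023F24Rik together with 1 of the 2 miR-29b copies. miR-16 comes from 2 genes, one on chr3:69009918-69009939 (plus strand) inside the protein-coding gene Smc4, beside miR-15b, and one on chr14:61631936-61631957 (minus strand) inside the lncRNA Dleu2.

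The second set holds miRNAs with a lower phenobarbital mean. The opposite arms miR-30a* and miR-30e* share one seed, which differs from that of the main arm miR-30c.
miR-30c: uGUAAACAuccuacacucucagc
miR-30a*: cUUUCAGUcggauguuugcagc
miR-30e*: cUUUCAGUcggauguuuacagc
miR-494: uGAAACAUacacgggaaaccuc
miR-30c comes from 2 genes, on chr1:23291714-23291736 (plus strand) outside other annotated genes and on chr4:120769584-120769606 (minus strand) within Nfyc, which also holds the miR-30e hairpin. miR-494 lies on chr12:109715367-109715388 (plus strand). The third set marks cells other than hepatocytes, namely blood leukocytes (miR-142-5p, miR-142-3p and miR-223), red cells (miR-144 and miR-451) and striated muscle (miR-133b), and is shown because these miRNAs carried much of the difference between arrays of one diet.
miR-142-5p: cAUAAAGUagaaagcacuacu
miR-142-3p: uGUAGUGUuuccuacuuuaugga
miR-223: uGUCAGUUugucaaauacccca
miR-144: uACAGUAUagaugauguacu
miR-451: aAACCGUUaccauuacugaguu
miR-133b: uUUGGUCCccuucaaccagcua
Both miR-142 arms come from 1 hairpin on chromosome 11, and the hairpins of miR-144 and miR-451 lie side by side elsewhere on that chromosome.

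The deposited table held log2 expression values for 611 mouse miRNAs and 39 viral miRNAs. The viral features gave a dim floor: the 0.95 quantile of their means, a log2 value of 3.985, and 20.6% of the mouse miRNAs had a mean above it in at least one CTNNB1KO group. These are called the miRNAs above the floor. Hepatocyte markers were present on all 8 arrays, with miR-122, the dominant miRNA of hepatocytes, between 15.05 and 15.32. CTNNB1KO phenobarbital replicate 4 had 100 mouse miRNAs above the floor, and each of the other 7 CTNNB1KO arrays had at least 117. Replicates 1 and 2 of the CTNNB1KO phenobarbital group stood apart by carrying striated muscle markers, of which 3 and 4 of the 8 measured lay above the floor there, against 0 of 8 on each of the other 14 arrays. The mean log2 value of the muscle list was 5.0 and 4.25 on these 2 arrays and 3.17 to 3.41 on the others. Pancreas markers lay under the floor on every array. In RNA from whole tissue, fewer cells of one type and less RNA per cell cannot be told apart.

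No miRNA passed the test between phenobarbital and control in CTNNB1KO livers. Of 611 mouse miRNAs, 0 (0%) were higher and 0 (0%) were lower at a limma adjusted p under 0.05, where the smallest adjusted p was 0.467. Without adjustment, 16 (2.62%) were higher and 16 (2.62%) were lower at p under 0.05, and 11 and 10 of them lay above the floor. An ordinary linear model without moderation, array weights and a fit of the 8 CTNNB1KO arrays alone also called 0 in either direction. In WT livers the same fit called 17 (2.78%) higher and 0 (0%) lower. In the test of the difference between genotypes, 0 (0%) had a higher and 7 (1.15%) a lower phenobarbital effect in CTNNB1KO than in WT.

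The shifts of single miRNAs had a similar SD in CTNNB1KO and WT livers but a different shape, a comparison for which no test was made. Over the miRNAs above the floor, the log2 differences between the phenobarbital and control means had an SD of 0.408 and a 0.05 to 0.95 quantile range of -0.465 to 0.465 in CTNNB1KO, where their median size was 0.167. Over the 131 miRNAs above the floor in WT, the SD was 0.393, the quantile range -0.304 to 0.801 and the median size 0.116. The direction was mixed in CTNNB1KO, with 54 miRNAs higher and 72 lower and a median of -0.05. Differences over 0.5 were found for 6 miRNAs (miR-133b, miR-1, miR-34a, miR-133a, miR-802 and miR-142-5p) and differences under -0.5 for another 6 (miR-494, miR-1224, miR-689, miR-30d, miR-30a* and miR-92a). Those of miR-133b, miR-1 and miR-133a rested on phenobarbital replicates 1 and 2, without which they were 0.12, -0.17 and -0.05. Without these 2 arrays the SD of the CTNNB1KO shifts over the same miRNAs was 0.442. In WT 14 differences were over 0.5 and 2 under -0.5. Of the 485 miRNAs not above the floor, none differed by more than 0.292 in either direction. The 95% interval of a difference reached a median of 0.329 to each side among the miRNAs above the floor, so most shifts seen here were smaller than their interval.

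The shifts in CTNNB1KO livers were also set beside those in WT livers, miRNA by miRNA. Across the miRNAs above the floor the Pearson correlation of the CTNNB1KO shift with the WT shift was -0.07 and the Spearman correlation -0.01, across miRNAs that share arrays and are not independent. The sign was the same for 50% of them.

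**Figure D1:**
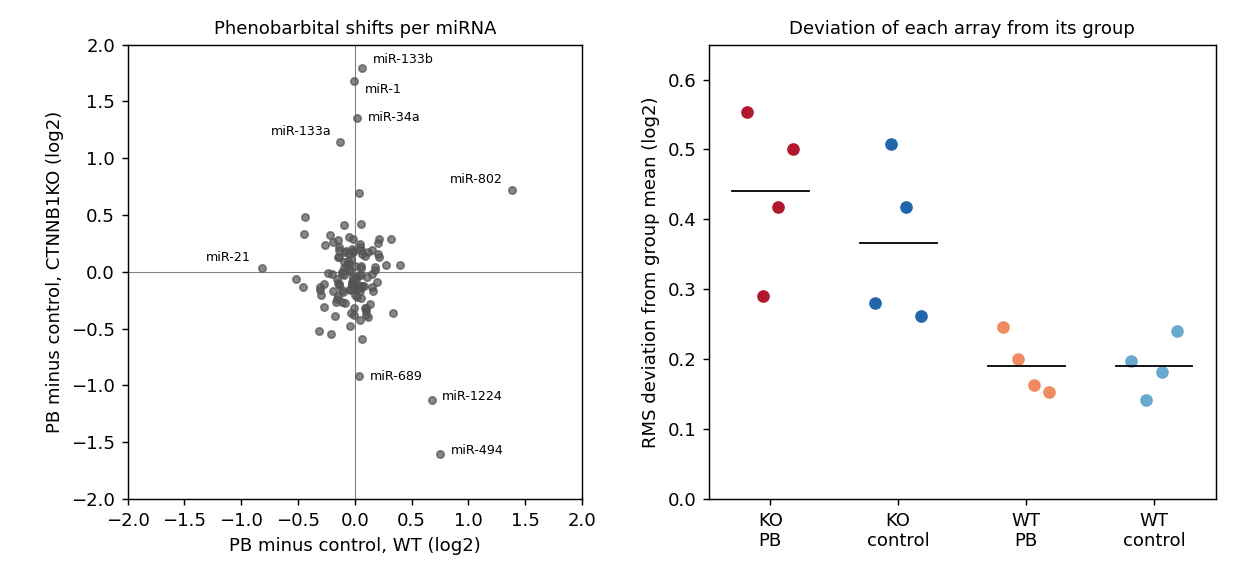
Left, the log2 difference between phenobarbital (PB) and control means of the miRNAs above the floor in CTNNB1KO livers (vertical) against the same difference in WT livers (horizontal), 1 point per miRNA. Right, the root mean square deviation of each array from its group mean over the miRNAs above the floor in any group, 1 point per array with the group mean as a line; CTNNB1KO (KO) arrays lie between 0.262 and 0.553, all above the WT arrays at 0.141 to 0.246.

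The phenobarbital and control arrays did not overlap for 3 miRNAs above the floor that were higher with phenobarbital (2.38% of those above the floor) and for 3 that were lower (2.38% of those above the floor). In WT livers this was so for 13 higher (9.92% of 131) and 11 lower (8.4% of 131). The 3 higher ones in CTNNB1KO were miR-802, miR-16 and miR-29c, and the 3 lower ones were miR-30d, miR-689 and miR-494.

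miR-802, a liver miRNA known to affect hepatic glucose metabolism in mice, stood at log2 values of 6.92, 7.26, 6.73 and 6.87 with phenobarbital and 6.66, 5.38, 6.41 and 6.48 in controls. The lowest phenobarbital array lay just above the highest control, and control replicate 2 lay far below the rest. The difference was 0.72 ± 0.23 (log2, SE; 1.64-fold; limma adjusted p = 0.562), and 0.43 without control replicate 2. The WT difference was 1.38 ± 0.23, and the phenobarbital effect of miR-802 in CTNNB1KO minus that in WT was -0.67 ± 0.32 (limma adjusted p = 0.608).

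miR-29c belongs to the miR-29 family, known for restraining collagen mRNAs in stellate cells. Its log2 values were 10.17, 10.31, 10.47 and 10.26 with phenobarbital and 10.16, 9.27, 10.12 and 9.98 in controls, a difference of 0.42 ± 0.15 (SE; limma adjusted p = 0.562) that was 0.21 without control replicate 2. Phenobarbital replicate 1 and control replicate 1 were nearly level, and control replicate 2 was the lowest of the 8. miR-29b, of the same seed, differed by 0.26 ± 0.11 and miR-29a by 0.17 ± 0.12, and none of the 3 members above the floor passed. Without control replicate 2 these differences were 0.17 for miR-29b and 0.041 for miR-29a. The median over these 3 was 0.26, beside -0.05 over all miRNAs above the floor, and the same members had a median of -0.01 in WT.

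miR-16, a member of the miR-15 and miR-16 family known for repressing cyclins and Bcl2, had log2 values of 8.42, 8.58, 8.45 and 8.51 with phenobarbital. Its control values were 8.32, 7.66, 8.21 and 8.11. The difference of miR-16 was 0.42 ± 0.14 (SE; limma adjusted p = 0.562), and it was 0.28 without control replicate 2, again the lowest array. Of the 6 family members, all above the floor, 4 had positive and 2 negative differences, with a median of 0.16. miR-15b, transcribed beside the copy of miR-16 within Smc4, overlapped widely, at 7.41, 7.23, 8.10 and 8.47 with phenobarbital and 7.79, 8.03, 6.87 and 7.37 in controls.

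The miR-30 family is abundant in hepatocytes and other epithelia. The 7 members on the list used here, which holds both arms of miR-30a and miR-30e, lay above the floor. Of these, 5 had negative and 2 positive differences, and the median was -0.36. At an unadjusted limma p under 0.05, 4 were lower, beside 2.62% of all 611 miRNAs, and none passed after adjustment. Most of the 611 lay under the floor. Among the miRNAs above it (20.6% of the 611), 10 were lower at that threshold, these 4 included. In WT the same 7 had a median of -0.01. The array also measured miR-30b*, miR-30c-1* and miR-30c-2*, which are not on that list and were not above the floor, with differences of -0.08, -0.12 and -0.13. miR-30d stood at 6.52, 6.51, 6.25 and 5.92 with phenobarbital and 6.60, 6.82, 7.10 and 7.05 in controls, a difference of -0.59 ± 0.16 (SE; limma adjusted p = 0.467). The highest phenobarbital array and the lowest control lay close together, and phenobarbital replicate 4, the array with the fewest miRNAs above the floor, was the lowest of the 8.

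The members of the miR-30 family differed by arm and sequence. The main arm miR-30c differed by -0.36 ± 0.15 (limma adjusted p = 0.642), with 7.35, 7.31, 7.11 and 6.88 under phenobarbital and 7.24, 7.63, 7.44 and 7.79 in controls. The opposite arms miR-30a* and miR-30e*, which share a seed, differed by -0.55 ± 0.23 and -0.38 ± 0.15. Both were lowest on phenobarbital replicate 4, at 3.84 and 3.83, and without it their differences were -0.26 and -0.24. The main arms miR-30a, miR-30b and miR-30e differed by -0.15 ± 0.13, 0.10 ± 0.15 and 0.03 ± 0.19.

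miR-23b, from a cluster with miR-27b and miR-24 that is known for targets in TGF-beta signalling, had 8.44, 8.52, 8.12 and 8.17 with phenobarbital and 8.48, 8.95, 8.57 and 8.83 in controls. Its groups overlapped by 1 control array, and the difference was -0.39 ± 0.14 (SE; limma adjusted p = 0.562). All 5 members of the miR-23, miR-27 and miR-24 list above the floor had negative differences, with a median of -0.16, and none passed. miR-92a, of the miR-17 and miR-92 paralogs that promote proliferation, had 7.55, 6.92, 6.85 and 6.80 with phenobarbital and 7.71, 6.95, 7.70 and 7.86 in controls, a difference of -0.53 ± 0.19 (SE; limma adjusted p = 0.588). miR-106b, another paralog, had a positive difference of 0.28 ± 0.13 (limma adjusted p = 0.875).

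The array features miR-689, miR-494 and miR-1224 had the largest negative differences. On the list named miR-494 and atypical features, 8 of 16 measured miRNAs lay above the floor. Of these 8, 6 had negative and 2 positive differences, with a median of -0.27, and none passed. miR-689 stood at 5.55, 6.30, 5.63 and 6.28 with phenobarbital and 6.46, 6.95, 7.09 and 6.94 in controls, with a difference of -0.92 ± 0.25 (SE; limma adjusted p = 0.467). miR-494, a miRNA of the imprinted Dlk1-Dio3 region, had 5.11, 6.34, 6.76 and 6.31 with phenobarbital and 7.16, 7.03, 9.68 and 7.05 in controls. miR-494 was the only one of the 75 measured members of that region above the floor in CTNNB1KO livers. Its difference was -1.60 ± 0.48 (SE; limma adjusted p = 0.562), and -0.95 without control replicate 3, which lay far above the other 3 controls. miR-1224 had 5.98, 6.93, 7.22 and 7.34 with phenobarbital and 6.90, 8.59, 9.14 and 7.36 in controls, so that its groups overlapped. Its difference was -1.13 ± 0.40 (SE; limma adjusted p = 0.562), and -0.75 without control replicate 3.

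**Figure D2:**
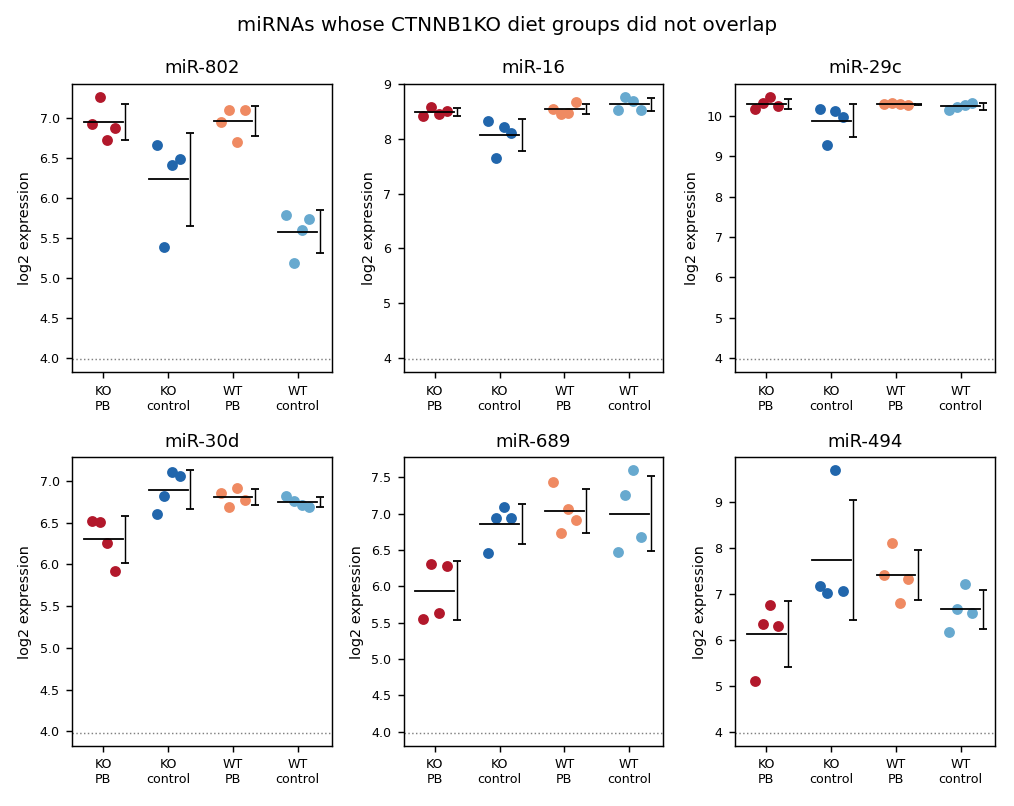
Log2 expression of the 6 miRNAs above the floor whose CTNNB1KO phenobarbital (PB) and control arrays did not overlap, with the WT arrays beside them: 1 point per array, a line for each group mean, error bars of 1 SD (n = 4) and a dotted line at the dim floor of 3.985. In the panels of miR-802, miR-16 and miR-29c, control replicate 2 is the lowest CTNNB1KO array, and in that of miR-494 control replicate 3, at 9.68, lies far above the rest.

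Hepatocyte-abundant miRNAs had a small median difference between diets, but single members differed by more than 0.5 in either direction. miR-122, the brightest of them, had 15.32, 15.26, 15.28 and 15.05 with phenobarbital and 15.22, 15.07, 15.09 and 15.22 in controls, a difference of 0.08 ± 0.05 whose 95% interval ran from -0.02 to 0.18. Of the 18 hepatocyte-abundant miRNAs above the floor, 5 had positive and 13 negative differences, with a median of -0.08, from -0.59 (miR-30d) to 0.72 (miR-802), and none passed. Of the 9 members of the let-7 family, which restrain growth, 1 had a positive and 8 a negative difference, with a median of -0.03. miR-21, known to rise in liver injury and tumours, had 12.30, 12.59, 13.45 and 12.82 with phenobarbital and 12.47, 13.80, 12.18 and 12.58 in controls, a difference of 0.03 ± 0.28 whose 95% interval ran from -0.55 to 0.62.

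The miRNAs with a test of the difference between genotypes past the threshold all belonged to the Dlk1-Dio3 list. This imprinted region holds a large cluster of miRNAs transcribed from the maternal chromosome, and 1 of its 75 measured members, miR-494, lay above the floor in CTNNB1KO livers. The 7 that passed were miR-376b, miR-154*, miR-127, miR-379, miR-377, miR-376a and miR-411. On the 8 CTNNB1KO arrays they lay between 3.06 and 3.65, all under the floor, and on the WT phenobarbital arrays between 3.64 and 5.92. For miR-376b, CTNNB1KO arrays had 3.47, 3.35, 3.10 and 3.65 with phenobarbital and 3.64, 3.06, 3.13 and 3.19 in controls, a difference of 0.14 ± 0.15 against 2.14 ± 0.15 in WT. The effect of phenobarbital on miR-376b in CTNNB1KO minus that in WT was -2.0 ± 0.21 (limma adjusted p = 9.84e-06). The count of 7 was 2 in an unmoderated linear model, 16 with array weights, 4 without both muscle-bearing arrays and 13 without WT phenobarbital replicate 1. The 7 differences lay between -0.10 and 0.14 in CTNNB1KO and between 0.59 and 2.14 in WT. The upper limits of their 95% intervals in CTNNB1KO reached at most 0.449, on values that all lay under the floor.

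Among the 485 miRNAs under the floor in both CTNNB1KO groups, a few also had groups that did not overlap, with differences from -0.29 to 0.18. The largest positive one was miR-703, at 3.44, 3.29, 3.30 and 3.38 with phenobarbital and 3.16, 3.14, 3.15 and 3.23 in controls, a difference of 0.18 ± 0.06 (limma adjusted p = 0.562). The largest negative one was miR-877*, at 3.54, 3.64, 3.42 and 3.57 with phenobarbital and 3.93, 3.70, 3.85 and 3.86 in controls, a difference of -0.29 ± 0.11 (limma adjusted p = 0.589). Over all 611 miRNAs, 8 (1.31%) did not overlap and were higher and 9 (1.47%) did not overlap and were lower.

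CTNNB1KO arrays of one diet differed more among themselves than WT arrays of one diet did. Over the 23.1% of mouse miRNAs above the floor in any of the 4 groups, the median within-group SD was 0.27 in CTNNB1KO phenobarbital and 0.242 in CTNNB1KO control livers, against 0.117 in WT phenobarbital and 0.142 in WT control livers. An SD over 0.5 was found for 20 and 19 miRNAs in the CTNNB1KO groups, phenobarbital first, and for 3 and 2 in the WT groups. Each array's root mean square deviation from its group mean averaged 0.404 ± 0.114 in CTNNB1KO and 0.19 ± 0.0384 in WT (SD, n = 8 arrays each; exact permutation p = 0.000155, two-sided, the smallest that 8 against 8 arrays allow). The deviations of arrays of one group share a group mean and are not fully independent. All 8 CTNNB1KO arrays deviated more than any WT array. This full separation was lost without phenobarbital replicate 4, where the lowest CTNNB1KO deviation was 0.209 (exact permutation p = 0.00124). It was also lost without control replicate 2, where the lowest was 0.23 (exact permutation p = 0.000932). The highest WT deviation was 0.246. The difference of 0.214 was 0.166 without the muscle list and 0.163 without both muscle-bearing arrays (n = 6 and 8). Without those arrays, phenobarbital replicates 3 and 4 deviate equally from their own mean by construction (0.327 each), so no p-value is given.

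A small part of the variation among the 8 CTNNB1KO arrays followed diet. Over the miRNAs above the floor, 22.4% of the sum of squares lay between the diet groups, and the median per miRNA was 12.1%. These include miR-1, miR-133b and miR-133a, whose phenobarbital means lay above the floor only through replicates 1 and 2. In WT the share was 57.9% over 131 miRNAs, with a median of 23.4%. More than 50% followed diet for 5 miRNAs in CTNNB1KO (miR-689, miR-30d, miR-106b, miR-16 and miR-23b) and for 26 in WT. The root mean square difference between 2 CTNNB1KO arrays had a median of 0.648 between diets, 0.619 within phenobarbital and 0.547 within controls. With the muscle list left out, these CTNNB1KO medians were 0.56 between diets, 0.526 within phenobarbital and 0.55 within controls. In WT these medians were 0.478 between diets, 0.276 within phenobarbital and 0.285 within controls.

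Array by array, 6 of 8 CTNNB1KO arrays had their nearest neighbour in the same diet group, against 8 of 8 in WT. Phenobarbital replicate 3 was nearest to control replicate 1 (0.446), and control replicate 2 was nearest to phenobarbital replicate 3 (0.469). The same 6 of 8 resulted when the muscle list was left out. Control replicate 2 held the lowest value of the 8 for 31 of the miRNAs above the floor and the highest for 25. Phenobarbital replicate 4 held the lowest for 46 and the highest for 5.

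The largest axis of variation was led by striated muscle miRNAs but did not hold these alone. The first principal component of the miRNAs above the floor took 43.9% of the variance. Its positive end was led by miR-1 and both miR-133 miRNAs, which serve in the differentiation of cardiac and skeletal muscle. At its negative end were miR-142-3p, miR-223, miR-1224, miR-494 and miR-34a. Control replicate 2, whose muscle markers lay under the floor, had the lowest score (-3.9). miR-1 stood at 8.17, 6.03, 3.68 and 3.09 with phenobarbital and 3.17, 3.64, 3.57 and 3.86 in controls. miR-133b stood at 7.74, 5.69, 3.25 and 3.51 with phenobarbital and 3.56, 3.15, 3.09 and 3.22 in controls. Phenobarbital replicates 1 and 2 were high and the other 6 arrays lay under the floor, so the mean differences of 1.68 ± 0.68 for miR-1 and 1.79 ± 0.61 for miR-133b rested on these 2 arrays. None of the 8 muscle markers passed.

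The second component took 28.2% of the variance and had control replicate 3 at its positive end. Its scores were -2.5, -0.7, -2.0 and -2.4 on the phenobarbital arrays and 0.9, -1.2, 5.2 and 2.7 on the controls. This component thus partly followed diet, with control replicate 2 the only control on the phenobarbital side. The miRNAs with the largest loadings at the positive end were miR-494, miR-1224, miR-1904, miR-689 and miR-202-3p. At the negative end they were miR-34a, miR-133b, miR-1, miR-142-3p and miR-223. miR-1904 stood at 4.57, 4.84, 4.66 and 4.07 with phenobarbital and 4.63, 4.21, 6.01 and 4.68 in controls. miR-202-3p stood at 4.82, 4.79, 4.68 and 4.13 with phenobarbital and 4.67, 4.30, 5.94 and 4.81 in controls. Both had control replicate 3 more than 1 above every other array. With the muscle list left out, a second component that partly followed diet remained and took 22.9% of the variance. Its scores were -3.0, -1.2, -0.2 and -1.6 on the phenobarbital arrays and -0.4, 3.2, 2.7 and 0.5 on the controls. Control replicate 1 thus lay among the phenobarbital arrays there.

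With the muscle list left out, the first component took 45.1% of the variance and ran between arrays irrespective of diet. Phenobarbital replicates 3 and 4 and control replicate 2 lay at one end, and control replicates 3 and 4 at the other. The leading miRNAs at the first end were miR-34a, a transcriptional target of p53, the leukocyte miRNAs miR-142-3p, miR-223, miR-142-5p and miR-146a, the mesenchymal miRNA miR-199a-3p, miR-15b and miR-21. At the other end were miR-494, the red-cell miRNA miR-144, miR-1904 and miR-202-3p.

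miR-34a stood at 7.96, 8.06, 9.49 and 8.75 with phenobarbital and 6.65, 9.41, 6.35 and 6.42 in controls. The 4 phenobarbital arrays lay above 3 of the controls, while control replicate 2 lay near the highest of them. The difference was 1.36 ± 0.48 (SE; 2.56-fold; limma adjusted p = 0.562). Without control replicate 2 it was 2.09 and passed (limma adjusted p = 0.000187), and without any other single array it lay at 1.05 or above and did not pass. The WT arrays lay between 4.73 and 5.11, and the difference of the phenobarbital effects was 1.34 ± 0.68 (limma adjusted p = 0.608). The narrow spread of the WT arrays enters the SE and p of these fits, which may be too small for CTNNB1KO livers.

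Leukocyte miRNAs moved along the same axis. miR-142-3p, made in blood cells, stood at 7.28, 7.88, 9.05 and 8.99 with phenobarbital and 8.04, 9.55, 6.90 and 7.38 in controls. miR-223, made in myeloid cells, stood at 6.14, 6.61, 7.88 and 8.18 with phenobarbital and 7.83, 7.73, 6.00 and 5.95 in controls. In both diets some arrays were high and others low, and the differences of 0.33 ± 0.43 and 0.33 ± 0.44 were smaller than their errors. The mean of the 11 measured leukocyte markers was 4.32, 4.46, 5.02 and 4.91 with phenobarbital and 4.72, 4.90, 4.28 and 4.26 in controls, against 4.05 to 4.28 on the 8 WT arrays. The part of leukocytes in the differences of miR-34a was not tested.

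miR-199a-3p, a miRNA of stellate and other mesenchymal cells that loaded on this component, had 6.28, 6.55, 7.60 and 7.39 under phenobarbital and 6.76, 7.56, 6.06 and 6.56 in controls. The mesenchymal list as a whole was ordered otherwise, with means of 4.38, 4.46, 4.68 and 4.32 under phenobarbital and 4.46, 4.57, 4.27 and 4.39 in controls, so that phenobarbital replicate 4 was among the lowest. Of the 7 mesenchymal markers above the floor, 4 had positive and 3 negative differences, and none passed. The red-cell miRNA miR-144 ran nearly opposite, at 6.76, 6.13, 4.91 and 5.10 with phenobarbital and 5.75, 4.85, 5.37 and 6.00 in controls. miR-451, from the neighbouring hairpin, varied less steeply, at 11.37, 10.93, 10.24 and 10.97 with phenobarbital and 10.51, 10.26, 10.12 and 10.70 in controls.

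**Figure D3:**
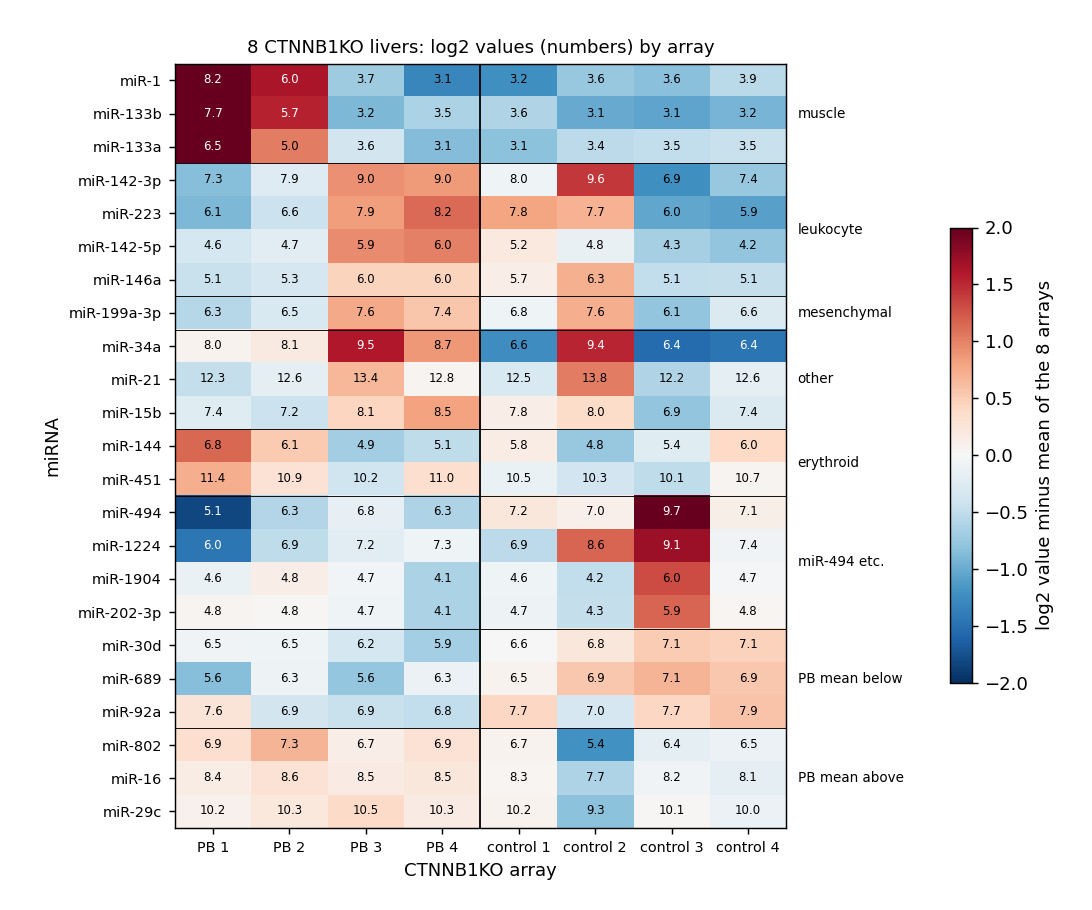
Values of 23 miRNAs (rows) on the 8 CTNNB1KO arrays (columns), with phenobarbital (PB) arrays left of controls. Numbers are log2 values and colours their distance from the mean of the 8 arrays; PB 1 and PB 2 are high in the muscle rows, PB 3, PB 4 and control 2 in the rows of miR-142-3p, miR-199a-3p and miR-34a, and control 3 in the rows of miR-494, miR-1904 and miR-202-3p.

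Leaving out both muscle-bearing arrays changed more than the muscle miRNAs. With phenobarbital replicates 3 and 4 against the 4 controls, 1 miRNA (0.164%) was higher and 0 (0%) were lower at a limma adjusted p under 0.05. Without adjustment, 22 (3.6%) were higher and 29 (4.75%) were lower. The phenobarbital mean of this fit rests on replicates 3 and 4 alone. Replicate 4 had 100 miRNAs above the floor, the fewest of the 8 CTNNB1KO arrays, and the lowest of the 8 values for 46. Its part in these changes was not tested. Of the 32 miRNAs with an unadjusted p under 0.05 on all arrays, 20 kept it, 12 lost it, and 31 others gained it. Among the miRNAs above the floor, 24 changed sign, and the median size of a difference was 0.247 in place of 0.167.

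The miRNA that passed was miR-142-5p, a leukocyte miRNA, at 4.63, 4.75, 5.92 and 5.99 with phenobarbital and 5.18, 4.83, 4.32 and 4.20 in controls. Phenobarbital replicates 1 and 2 lay among the controls and replicates 3 and 4 above all of them. Its difference was 0.69 ± 0.28 (limma adjusted p = 0.642) on all arrays and 1.33 ± 0.23 (limma adjusted p = 0.011) without replicates 1 and 2. Both fits take the spread of a miRNA from CTNNB1KO and WT arrays together. WT arrays varied less, so this SE and p may be too small for CTNNB1KO livers. The 2 arrays that were kept had leukocyte means of 5.02 and 4.91, against 4.72, 4.90, 4.28 and 4.26 in the 4 controls. Replicate 4 was thus nearly level with control replicate 2. The part of leukocytes in this result was not tested.

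In all, 9 miRNAs above the floor moved by over 0.5 between the fits, 5 upwards and 4 downwards. The 4 that moved down were miR-1, miR-133b, miR-133a and miR-144. Their differences without both arrays were -0.17 ± 0.19, 0.12 ± 0.14, -0.05 ± 0.15 and -0.49 ± 0.26. The 5 that moved up were the leukocyte miRNAs miR-223, miR-142-3p and miR-142-5p with miR-34a and miR-199a-3p. miR-223 had a difference of 1.16 ± 0.43, miR-142-3p of 1.05 ± 0.44, miR-34a of 1.91 ± 0.56 (limma adjusted p = 0.27) and miR-199a-3p of 0.76 ± 0.27.

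The 6 miRNAs whose groups had not overlapped on all arrays could not change sign when phenobarbital arrays were left out, so only the sizes of their differences are informative. Without both arrays the difference was 0.57 ± 0.28 for miR-802, 0.41 ± 0.18 for miR-16 and 0.48 ± 0.18 for miR-29c. It was -0.81 ± 0.17 for miR-30d (limma adjusted p = 0.0676), -0.91 ± 0.29 for miR-689 and -1.20 ± 0.55 for miR-494. The median of the 7 miR-30 members was -0.53 in place of -0.36. Phenobarbital replicate 4, the lowest array for miR-30d, miR-30a* and miR-30e*, was among the arrays kept. None of these passed. The higher within-group deviation of CTNNB1KO arrays than of WT arrays was likewise found without both arrays, as given above.

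**Figure D4:**
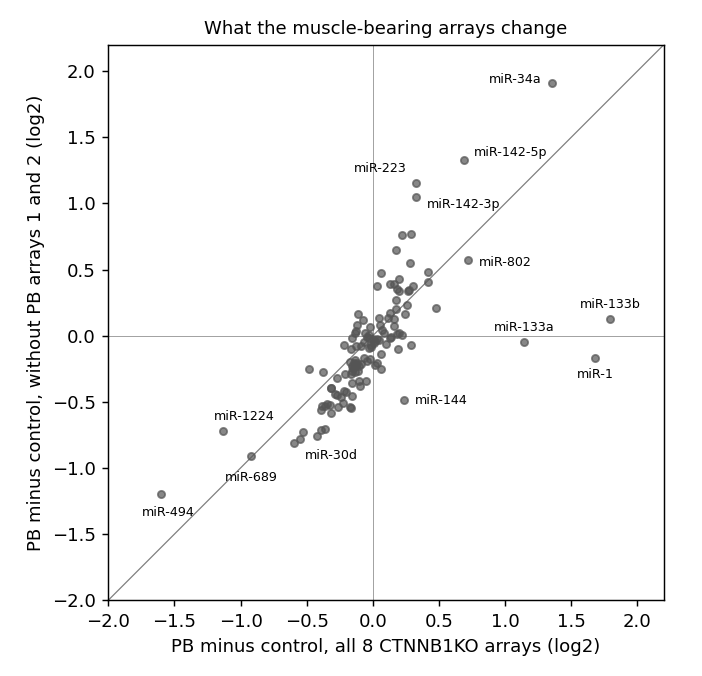
Log2 difference between phenobarbital (PB) and control means of the miRNAs above the floor, without CTNNB1KO PB arrays 1 and 2 (vertical) against all 8 CTNNB1KO arrays (horizontal), with the line of equality. miR-1, miR-133b and miR-133a lie near 0 on the vertical axis, and miR-34a, miR-142-5p, miR-223 and miR-142-3p lie above the line.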

How the data were processed

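Total RNA of 16 mouse liver samples (100 ng each) was hybridised to single-colour Agilent miRNA arrays, per the labels' protocols. The authors deposited log2 expression values in a table of 650 features; per the submitters' processing notes they used RMA and limma, with versions, background step and filters not given in the sources used here. Scanner signals, detection calls and slides were not used here, and precision is limited by the number of arrays. The mouse miRNAs (611) were fitted with limma 3.58.1 in R 4.3.3, with 1 mean per group over all 16 arrays, 12 residual degrees of freedom, eBayes with an intensity trend and Benjamini-Hochberg adjustment over 611 at 0.05, two-sided. The fit shares 1 estimate of the spread per miRNA among the groups. WT arrays varied less than CTNNB1KO arrays, so SEs, intervals and p-values of the CTNNB1KO differences may be too small. The dim floor was the 0.95 quantile of 39 viral features (29 of cytomegalovirus and 10 of gammaherpesvirus). Named miRNAs were those past the threshold, with the smallest p-values, with groups that did not overlap, with the largest within-group SDs, leading the components, or above the floor in a list. The 19 lists, the arrays left out and the named miRNAs were chosen with earlier results of these data known. The procedure was tested on simulated data that gave each miRNA the same spread in all groups. That test therefore does not cover the larger spread of the CTNNB1KO arrays.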

Additional observations from a re-analysis of the deposited data

Results flagged for a closer look

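Among the miRNAs named here, an array lay far from the other 3 of its CTNNB1KO group in 4 of 74 groups examined, where chance gives about 1 in 20. Control replicate 3 had 9.68 for miR-494, against 7.03 to 7.16 on the other controls. Control replicate 2 had 9.41 for miR-34a, against 6.35 to 6.65, and 4.65 for miR-705, against 3.66 to 3.69. Phenobarbital replicate 1 had 7.55 for miR-92a, against 6.80 to 6.92 on the other phenobarbital arrays.

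The phenobarbital effect in CTNNB1KO livers differed from that in WT livers for 7 miRNAs of the Dlk1-Dio3 list (limma interaction term). The CTNNB1KO effect minus the WT effect was -2.0 for miR-376b (adjusted p = 9.84e-06), -1.84 for miR-154* (0.00111), -1.20 for miR-127 (0.00681), -1.05 for miR-379 (0.00837), -0.95 for miR-377 (0.0101), -0.624 for miR-376a (0.031) and -0.614 for miR-411 (0.031).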

How the results depend on the processing

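The count of miRNAs past the threshold in CTNNB1KO livers was 0 in both directions under every alternative run except for 1 higher without both muscle-bearing arrays (miR-142-5p) and 0 to 1 higher when single arrays were left out (miR-34a, without control replicate 2). In the interaction, the count of higher effects was 4 with array weights, 1 without both muscle-bearing arrays and 0 to 1 with single arrays left out. The count of lower effects was 2 in an unmoderated linear model, 16 with array weights, 4 without both muscle-bearing arrays and 5 to 13 with single arrays left out, the highest without WT phenobarbital replicate 1. In WT livers the count of lower miRNAs was 5 with array weights and 0 to 1 with single arrays left out. The causes were not tested. The SD of the CTNNB1KO shifts was 0.198 over all 611 miRNAs and 0.408 over those above the dim floor. With the replicate number as a replicate block, 0 passed in CTNNB1KO, 17 in WT and 7 in the interaction. Deviations of same-numbered arrays correlated from -0.447 to 0.0509, so no shared deviation by number was seen. Whether the numbers stand for a pairing cannot be told from these correlations.

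Sign changes concerned only differences that had not passed. Without both muscle-bearing arrays they were -0.066 for miR-30b, -0.20 for miR-30e, -0.17 for miR-1, -0.048 for miR-133a and -0.49 for miR-144. With array weights miR-30e differed by -0.00056, and miR-122 by 0 after quantile normalization. Over single arrays left out, the range was -0.030 to 0.17 for miR-30b, -0.17 to 0.15 for miR-30e, -0.026 to 0.86 for miR-142-3p, -0.10 to 0.31 for miR-146a, -0.0075 to 0.49 for miR-199a-3p, -0.18 to 0.38 for miR-21, -0.11 to 0.51 for miR-144, -0.57 to 0.028 for miR-1904, -0.53 to 0.014 for miR-202-3p, -0.13 to 0.42 for miR-705 and -0.037 to 0.061 for miR-377. The difference in within-group deviation lay between 0.163 and 0.242 under the alternatives run.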
